A study of Homo sapiens with 11 samples.

Results

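The genes described here are 37 human genes of the interferon and double-stranded RNA response, out of 19536 gene symbols on the array. A probe set (the short stretch of a transcript, usually an exon, that the array reads as 1 unit) counted for a gene where the array's gene table gave it that symbol alone, and older names were accepted, so that probe sets listed as DDX58 counted for RIGI. All 37 genes had probe sets on the array, 696 in total. At least 4 usable probe sets, the minimum for a gene value, were present for 28 of them. The other 9 (OASL, IRF7, IFNB1, CXCL10, ISG15, IFIT2, IFIT3, IFITM3 and IFI27) are called dim here and were tested only in a separate setting without the filter. The label follows this count and not the level. Over all its probe sets OAS3, among the 28, read lower than CXCL10, among the 9.

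The series depleted Tat-SF1, a protein of transcription elongation and splicing encoded by HTATSF1, from T-REx-293, a human embryonic kidney (HEK293) line with tetracycline-switched plasmids. All cells stably carried a GFP plasmid and received 2.5 µg/mL tetracycline for 72 h, which turned on a short hairpin RNA (shRNA) or a vector without one. The knockdown cells expressed Tat-SF1 shRNA A (3 arrays) or Tat-SF1 shRNA B (3 arrays), and the control cells expressed GFP shRNA (3 arrays) or Empty Vector (2 arrays, after replicate 3 failed the authors' quality control). The replicates are called biological triplicates in the series design. Total RNA was hybridised to exon arrays, 1 per sample.

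Cells read long double-stranded RNA, and RNA with an uncapped 5′ end, as a sign of a virus. The sensors RIG-I, MDA5 and TLR3 switch on interferon beta, which is secreted, binds its receptor and sends a complex of STAT2, IRF9 and another STAT protein to a short element in the promoters of interferon-stimulated genes. PKR and the oligoadenylate synthetases (OAS) bind double-stranded RNA directly and stop translation or start RNA decay. An shRNA is itself a hairpin with a double-stranded stem, so this set of genes is a usual check of shRNA experiments, and Empty Vector is the group in which no shRNA was expressed.

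The core of the interferon-stimulated response element, taken as GAAA, any 2 bases and GAAA, was searched on both strands (TTTC, any 2 bases and TTTC on the other) in promoters of 300 bases, 250 before and 50 after the start of transcription, from the RefSeq table of GRCh38.p14. Matches were allowed to overlap. The table held promoters of 30 of the 37 genes, and 20 of these 30 (66.7%) had at least 1 match, against 1195 of 27305 genes in the table (4.38%). A match is a description of the letters and no evidence of binding. The 8 windows below carry a match with 15 bases on each side, and were chosen from genes with 1 promoter in the table to show the element in a ligand (CXCL10), a sensor and double-stranded RNA enzymes (IFIH1, OAS3, DDX60), a modifier (ISG15) and effectors (IFIT1, ISG20, IFITM3). Each is written 5′ to 3′ in the direction of its gene, with the matching bases in capitals, and all end before the start of transcription. The positions are chr4:76023694-76023733 (minus strand) for CXCL10, chr2:162318813-162318858 (minus) for IFIH1, chr12:112938316-112938355 (plus) for OAS3, and chr4:168318816-168318855 (minus) for DDX60. They are chr1:1013369-1013414 (plus) for ISG15, chr10:89392492-89392544 (plus) for IFIT1, chr15:88638932-88638971 (plus) for ISG20, and chr11:320871-320927 (minus) for IFITM3.
CXCL10: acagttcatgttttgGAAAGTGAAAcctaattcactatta
IFIH1: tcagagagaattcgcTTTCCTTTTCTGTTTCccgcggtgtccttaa
OAS3: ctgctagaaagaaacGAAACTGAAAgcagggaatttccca
DDX60: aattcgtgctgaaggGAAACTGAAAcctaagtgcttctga
ISG15: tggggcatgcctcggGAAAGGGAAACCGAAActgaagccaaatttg
IFIT1: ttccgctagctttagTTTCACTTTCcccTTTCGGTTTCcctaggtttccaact
ISG20: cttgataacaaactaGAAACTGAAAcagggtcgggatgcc
IFITM3: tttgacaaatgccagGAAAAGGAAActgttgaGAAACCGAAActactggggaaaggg

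The deposited values are on the log2 scale, and the array medians lay between 7.90 and 7.91. Most dim probe sets crowd around this level, so levels are given as the gene value minus the array median, and a change in a gene near the median is compressed. The labels were checked first on HTATSF1. Its gene value was 8.29, 8.21 and 8.22 with Tat-SF1 shRNA A, and 8.11, 8.19 and 8.21 with Tat-SF1 shRNA B. The controls read 8.53, 8.63 and 8.49 with GFP shRNA and 8.54 and 8.32 with Empty Vector. Every knockdown array lay below every control array, and the difference was -0.30 (exact two-sided permutation test over 462 splits, p = 0.00216, the smallest these arrays allow; adjusted p = 0.0484 by limma). The array names of shRNA A replicate 3 and of all shRNA B arrays carry an added suffix that no control array has. With this suffix as a block HTATSF1 differed by -0.25, and on the arrays without it by -0.24 (exact permutation p = 0.0476 each), but no gene, HTATSF1 included, then passed in this comparison by limma. Read as signal above the array median, HTATSF1 had 56.0 units in the knockdown cells and 124 units in the control cells, or 45.1% of control. As a check of the cell type, 7 of 9 measured HEK293 markers lay at least 0.5 above the array median (VIM highest, by 2.24). NEFM and PAX2 did not, and over all their probe sets they lay 0.019 above and 0.19 below it. None of the measured leukocyte (3 of 12 listed), plasmacytoid dendritic cell (5 of 6), fibroblast (7 of 8) or endothelial (5 of 7) markers reached 0.5. The mean of the 10 leukocyte markers on the array lay from 0.089 to 0.058 below the median with Tat-SF1 shRNA A, 0.101 to 0.085 below with Tat-SF1 shRNA B, 0.106 to 0.081 below with GFP shRNA and 0.098 to 0.093 below with Empty Vector.

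Most of the interferon and double-stranded RNA genes read near the array median under every construct. Of the 28 measured genes, 18 (64.3%) lay within 0.1 of the median, against 3706 of 14552 genes (25.5%). ADAR, EIF2AK2 and USP18 were the 3 (10.7%) that lay at least 0.5 above it, against 34.7% of all genes. The median level was 0.071 above the array median, against 0.31 for all genes, both after a filter that keeps only probe sets at or above the table median. By probe set, 83 of 687 with an estimate (12.1%) lay at least 0.5 above the table median, against 26.9% of all probe sets with 1 symbol. In total RNA of a cell culture, fewer cells expressing a gene and less of its RNA per cell cannot be told apart. No array of interferon-treated cells is part of these data, so the level each gene would reach when induced is not known here.

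**Figure D1:**
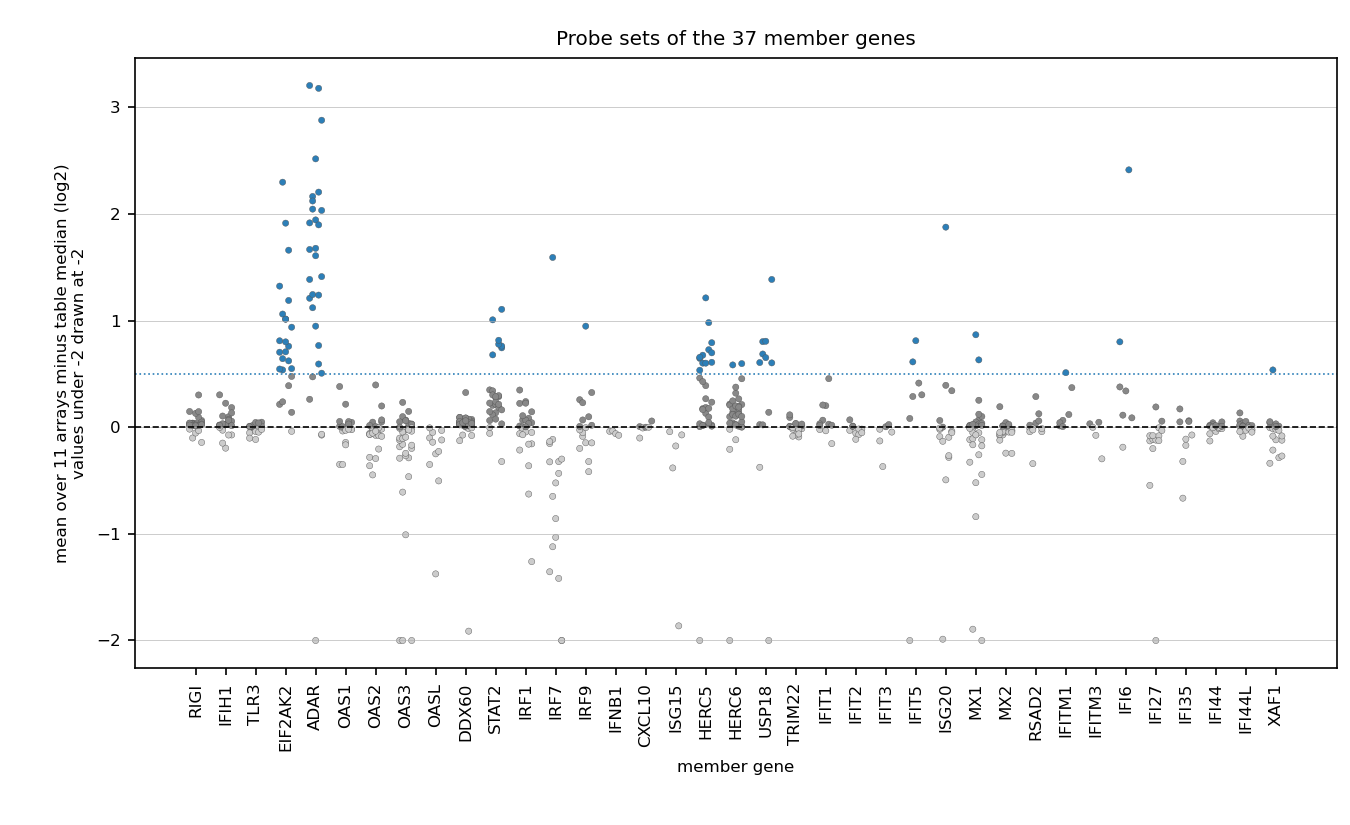
Mean over the 11 arrays of each probe set of the 37 genes with an estimate on all arrays, minus the table median (log2), with 1 column per gene. The dashed line is the table median and the dotted line 0.5 above it. Blue points lie at least 0.5 above the median (83 probe sets), dark grey points between the lines, and light grey points below the median. ADAR (25 of 30) and EIF2AK2 (19 of 25) have most of their probe sets at least 0.5 above the median, while ISG15 and IFNB1 have no probe set above the median.

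Among the genes that sense or bind double-stranded RNA, the 3 sensors sat close to the array median and 2 enzymes, EIF2AK2 and ADAR, stood well above it. RIGI, which encodes RIG-I, read 7.95, 7.94 and 7.94 with Tat-SF1 shRNA A, 7.93, 7.95 and 7.94 with Tat-SF1 shRNA B, 7.93, 7.95 and 7.93 with GFP shRNA, and 7.95 and 7.93 with Empty Vector. IFIH1, which encodes MDA5, a sensor of long double-stranded RNA, read 7.93, 7.93 and 7.94 with shRNA A, 7.93, 7.93 and 7.94 with shRNA B, 7.94, 7.95 and 7.94 with GFP shRNA, and 7.95 and 7.96 with Empty Vector. TLR3, the endosomal receptor for double-stranded RNA, read 7.91, 7.92 and 7.91 with shRNA A, 7.92, 7.91 and 7.92 with shRNA B, 7.93, 7.91 and 7.93 with GFP shRNA, and 7.94 and 7.92 with Empty Vector. The filter keeps probe sets at or above the table median, which places these gene values above it. Over all probe sets, RIGI averaged 0.029 and IFIH1 0.027 above the array median, and TLR3 0.0056 below it. The shRNA and Empty Vector arrays overlapped for all of them. The shRNA arrays minus Empty Vector gave -0.0019 ± 0.012 (SE) for RIGI, -0.014 ± 0.010 for IFIH1 and -0.010 ± 0.010 for TLR3, with limma adjusted p of 0.992, 0.883 and 0.923.

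EIF2AK2 encodes PKR, the kinase that halts translation when it binds double-stranded RNA. It read 8.73, 8.61 and 8.78 with Tat-SF1 shRNA A, 8.57, 8.61 and 8.71 with Tat-SF1 shRNA B, 8.73, 8.61 and 8.66 with GFP shRNA, and 8.71 and 8.53 with Empty Vector. The Empty Vector arrays spanned most of the range of the others, and the difference was 0.044 ± 0.070 (SE, limma adjusted p = 0.963). In units above the array median it had 178 ± 26.0 with shRNA A, 156 ± 19.9 with shRNA B, 168 ± 17.7 with GFP shRNA and 155 ± 35.6 with Empty Vector (SD). ADAR, which converts adenosine to inosine in double-stranded RNA, was the brightest of the 28, at 9.65, 9.53 and 9.63 with shRNA A, 9.42, 9.57 and 9.65 with shRNA B, 9.57, 9.38 and 9.55 with GFP shRNA, and 9.62 and 9.47 with Empty Vector. All groups overlapped, and ADAR differed by 0.0071 ± 0.085 between shRNA and Empty Vector arrays (limma adjusted p = 0.994) and by 0.058 ± 0.063 between knockdown and control arrays (limma adjusted p = 0.713). That was the largest difference of any of the 28 genes in the knockdown comparison.

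The oligoadenylate synthetases make the messenger that activates RNase L. OAS1 read 7.95, 8.02 and 7.96 with Tat-SF1 shRNA A, 7.95, 7.98 and 7.98 with Tat-SF1 shRNA B, 7.93, 7.93 and 7.93 with GFP shRNA, and 7.90 and 7.97 with Empty Vector. All 6 knockdown arrays lay above all 3 GFP shRNA arrays, but Empty Vector replicate 2 lay among them. OAS2 and OAS3 lay between 7.91 and 8.02 on all arrays. OASL, an OAS relative that lacks this enzyme activity and promotes RIG-I signalling, had no probe set above the table median among its 11, and the median of all of them lay between 7.68 and 7.86. DDX60, a helicase described as an aid to RIG-I signalling, lay between 7.93 and 7.99 over its 43 probe sets used.

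**Figure D2:**
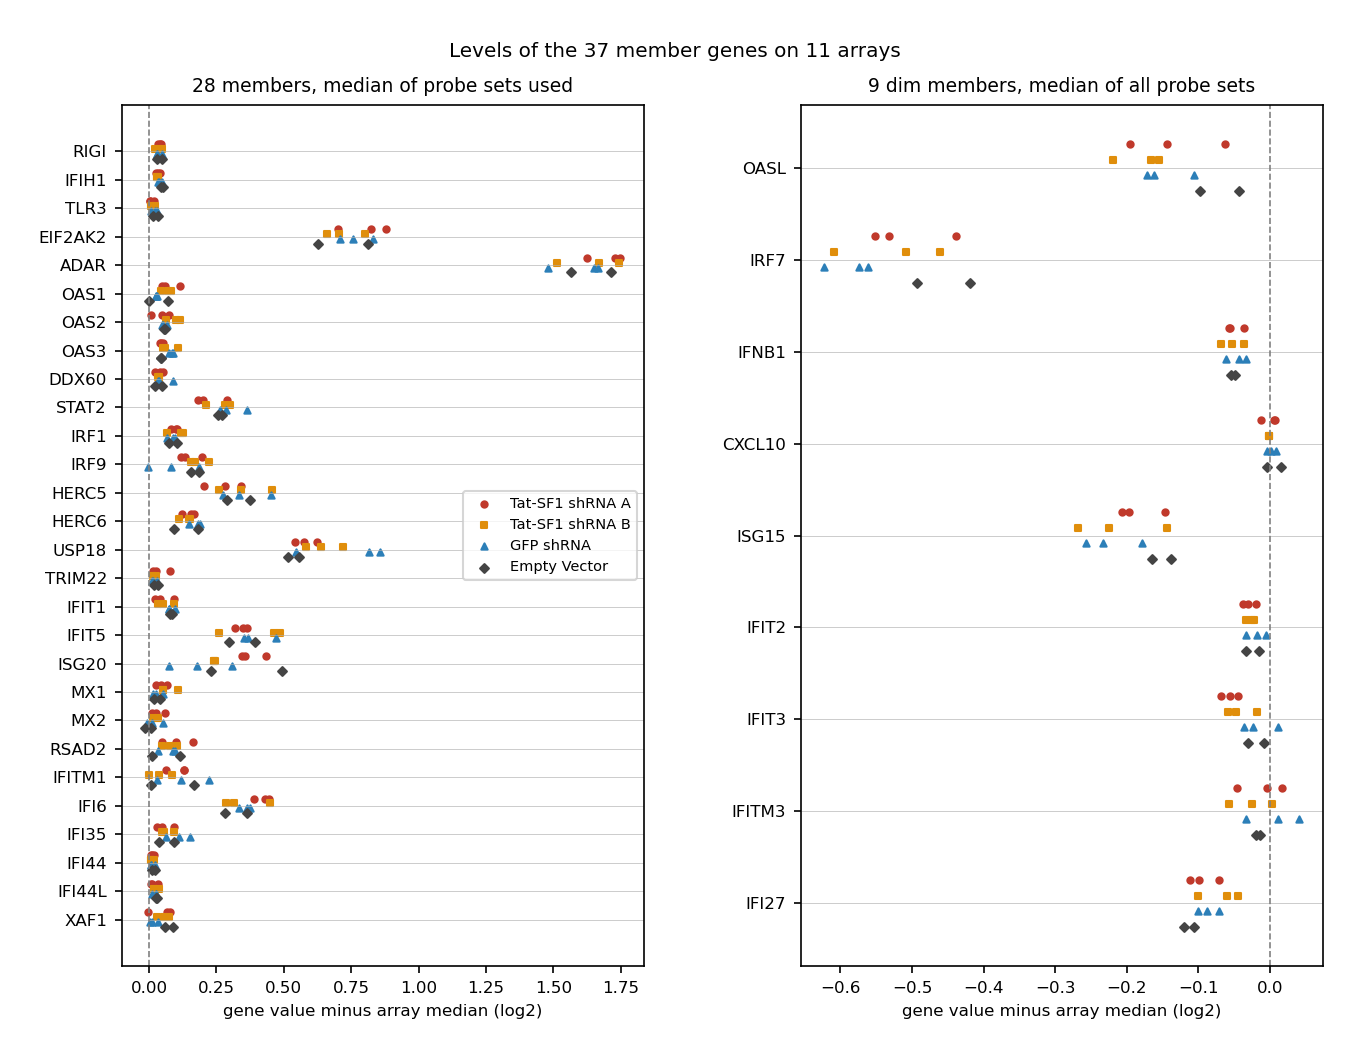
Gene value minus array median (log2) of the 37 genes on the 11 arrays, with 1 point per array and the constructs offset from top to bottom in the order of the legend. The left panel holds the 28 measured genes, whose value is the median of the probe sets used. The right panel holds the 9 dim genes, whose value is the median of all their probe sets, on its own scale. Most genes hug the dashed line at the array median, and ADAR, EIF2AK2 and USP18 stand clear of it under all 4 constructs.

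Among the transcription factors of the pathway and the ligands, STAT2 was the one whose level stood clearly above the array median over all its probe sets, by 0.24. On the same basis IRF1 lay 0.0045 above the median and CXCL10 0.0010 above it, while IRF9 lay 0.011, IFNB1 0.050 and IRF7 0.52 below it. STAT2, the interferon-specific STAT, read 8.08, 8.11 and 8.19 with Tat-SF1 shRNA A, 8.12, 8.18 and 8.20 with Tat-SF1 shRNA B, 8.26, 8.19 and 8.17 with GFP shRNA, and 8.17 and 8.16 with Empty Vector. Both Empty Vector values lay inside the range of each shRNA group except GFP shRNA, whose lowest array lay between them, and shRNA minus Empty Vector was 0.00086 ± 0.043 (limma adjusted p = 1.00). IRF1, an interferon-gamma-induced factor, read 7.98, 8.01 and 8.00 with shRNA A, 7.97, 8.02 and 8.03 with shRNA B, 7.99, 8.00 and 7.97 with GFP shRNA, and 7.98 and 8.01 with Empty Vector, so the groups overlapped. IRF9, the DNA-binding subunit of the STAT2 complex, read 8.10, 8.02 and 8.04 with shRNA A, 8.08, 8.13 and 8.06 with shRNA B, 7.98, 7.90 and 8.09 with GFP shRNA, and 8.06 and 8.09 with Empty Vector. The lowest 2 arrays were both GFP shRNA arrays, while the third GFP shRNA array lay among the others. A further 16 probe sets carry the symbols of both IRF9 and its neighbour RNF31 and were not used, so the IRF9 value is uncertain.

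IRF7, the factor that amplifies interferon production, was dim: 16 of its 17 probe sets with an estimate had means below the table median, and their overall median lay between 7.28 and 7.49. The remaining IRF7 probe set, 3358185, stood at 9.27, 9.58 and 9.65 with shRNA A, 9.70, 9.46 and 9.53 with shRNA B, 9.57, 9.34 and 9.45 with GFP shRNA, and 9.36 and 9.56 with Empty Vector. This 1 probe set was bright under every construct and its groups overlapped. IFNB1, the interferon beta gene, had all 4 probe sets below the table median, and its values were 7.85, 7.85 and 7.87 with shRNA A, 7.85, 7.87 and 7.84 with shRNA B, 7.87, 7.84 and 7.86 with GFP shRNA, and 7.85 and 7.85 with Empty Vector. CXCL10, a chemokine strongly induced by interferons, read 7.91, 7.91 and 7.89 with shRNA A, 7.90 on all 3 arrays with shRNA B, 7.90, 7.90 and 7.91 with GFP shRNA, and 7.92 and 7.90 with Empty Vector. Neither ligand separated any construct from another.

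ISG15 is a ubiquitin-like protein that is among the first to be induced by interferon, and its promoter holds 2 overlapping copies of the element core. All 5 of its probe sets lay below the table median, and its values were 7.71, 7.76 and 7.70 with Tat-SF1 shRNA A, 7.76, 7.64 and 7.68 with Tat-SF1 shRNA B, 7.72, 7.65 and 7.67 with GFP shRNA, and 7.74 and 7.77 with Empty Vector. Empty Vector replicate 2 was the highest of all 11 arrays by less than 0.01, and replicate 1 lay inside the range of the shRNA arrays. Without a filter on dim probe sets, ISG15 averaged 7.70 ± 0.045 in shRNA arrays and 7.75 ± 0.020 in Empty Vector arrays (SD, n = 9 and 2), a difference of -0.055 ± 0.031 (SE, limma adjusted p = 0.891). USP18, the protease that takes ISG15 off its targets, was bright, at 8.48, 8.45 and 8.53 with shRNA A, 8.49, 8.54 and 8.62 with shRNA B, 8.76, 8.72 and 8.45 with GFP shRNA, and 8.46 and 8.42 with Empty Vector. The 2 highest arrays were GFP shRNA replicates 1 and 2, and the third GFP shRNA array, like shRNA A replicate 2, lay between the Empty Vector arrays. All 9 shRNA arrays were above the Empty Vector mean, and the difference of 0.12 ± 0.074 (95% interval -0.039 to 0.28, limma adjusted p = 0.837) was the largest of the 28 genes against Empty Vector. A further 18 probe sets are shared between USP18 and USP41P, a near-identical copy, so this value may read both. HERC5, the ligase that attaches ISG15, lay between 8.11 and 8.36 and its relative HERC6 between 8.00 and 8.09. TRIM22, an antiviral ubiquitin ligase, lay between 7.91 and 7.98.

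The antiviral effectors block viral entry, translation or replication. IFIT1, which binds RNA that lacks the usual cap methylation, read 7.92, 7.95 and 8.00 with Tat-SF1 shRNA A, 7.94, 8.00 and 7.96 with Tat-SF1 shRNA B, 7.98, 7.98 and 8.00 with GFP shRNA, and 7.99 and 7.98 with Empty Vector. MX1, a dynamin-like GTPase that acts on influenza virus, read 7.93, 7.97 and 7.95 with shRNA A, 8.01, 7.96 and 7.95 with shRNA B, 7.95, 7.92 and 7.93 with GFP shRNA, and 7.94 and 7.92 with Empty Vector. All 3 shRNA B arrays of MX1 lay above both Empty Vector arrays while its other constructs overlapped with them, and for IFIT1 every construct overlapped with Empty Vector. ISG20, an RNA exonuclease, read 8.34, 8.25 and 8.26 with shRNA A, 8.15, 8.15 and 8.15 with shRNA B, 7.98, 8.21 and 8.08 with GFP shRNA, and 8.39 and 8.13 with Empty Vector. The 2 Empty Vector arrays of ISG20 differed by more than any of its construct means, and its shRNA minus Empty Vector difference was -0.092 ± 0.065 (SE, limma adjusted p = 0.872). The sign turned without Empty Vector replicate 1, to 0.038, and also over all 16 ISG20 probe sets, to 0.010 ± 0.012 (SE, limma adjusted p = 0.962), with 8 of 9 shRNA arrays above the Empty Vector mean. One ISG20 probe set had a mean of 9.78, and only 5 of its 16 passed the filter.

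IFITM3, a membrane protein that blocks viral fusion, was dim and read 7.86, 7.92 and 7.90 with Tat-SF1 shRNA A, 7.88, 7.85 and 7.91 with Tat-SF1 shRNA B, 7.87, 7.94 and 7.91 with GFP shRNA, and 7.88 and 7.89 with Empty Vector. It overlapped in all constructs, and 4 further probe sets that it shares with IFITM2 were not used. IFIT5, which binds RNA with a 5′ phosphate, lay between 8.16 and 8.39. MX2, RSAD2 (viperin) and IFITM1 had values between 7.89 and 8.13, with the constructs overlapping, except that MX2 in both Tat-SF1 shRNA groups lay above Empty Vector. IFIT2 and IFIT3 stayed between 7.84 and 7.91 over all their probe sets.

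IFI6, a small interferon-induced membrane protein, read 8.33, 8.35 and 8.29 with Tat-SF1 shRNA A, 8.19, 8.22 and 8.35 with Tat-SF1 shRNA B, 8.26, 8.24 and 8.28 with GFP shRNA, and 8.27 and 8.19 with Empty Vector. The shRNA A arrays lay above both Empty Vector arrays, and the other shRNA arrays overlapped them. XAF1, a pro-apoptotic partner of the inhibitor of apoptosis XIAP, read 7.98, 7.90 and 7.97 with shRNA A, 7.96, 7.98 and 7.93 with shRNA B, 7.90, 7.92 and 7.94 with GFP shRNA, and 7.96 and 7.99 with Empty Vector. All 3 GFP shRNA arrays of XAF1 lay below both Empty Vector arrays. IFI35, IFI44 and IFI44L lay between 7.91 and 8.05, and IFI27, over all of its probe sets, between 7.78 and 7.86.

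**Figure D3:**
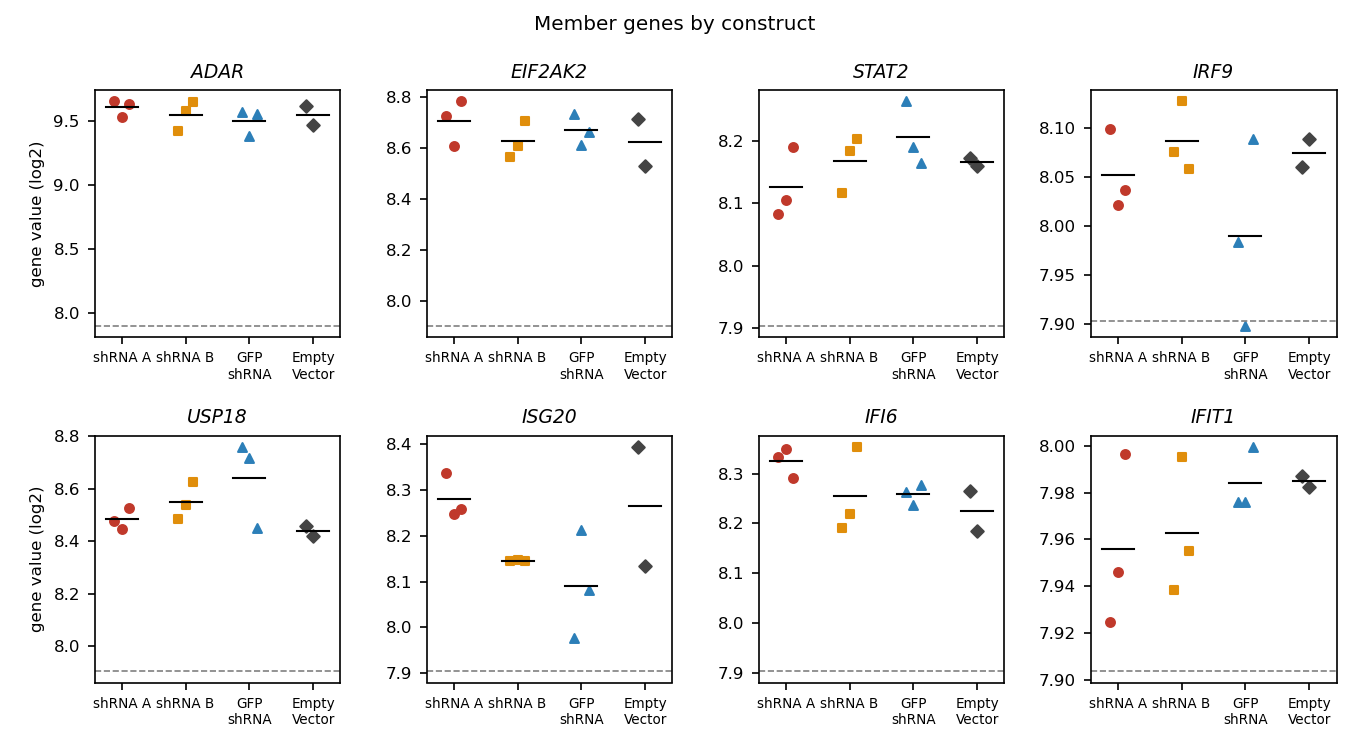
Gene value (log2) of 8 genes on every array, by construct, with the mean of each construct as a bar and the array median as a dashed line. The vertical scale differs between panels. The constructs overlap in most panels, 2 GFP shRNA arrays of USP18 stand above the rest, and the 2 Empty Vector arrays of ISG20 lie far apart.

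Expression of an shRNA was compared with Empty Vector over all 9 shRNA arrays. None of the 28 genes passed (adjusted p under 0.05 by limma), where 2 of 14552 genes (0.0137%) did, and none reached an unadjusted p under 0.05, against 6.81% of all genes. Of the 28, 18 had a higher mean with an shRNA and 10 a lower one, with a median of 0.0053, and 51.2% of all genes were higher, with a median of 0.00092. The differences ran from -0.092 (ISG20) to 0.12 (USP18), and the smallest adjusted p was 0.794. The 95% intervals of 27 of the 28 genes stayed within 0.25 of 0 on the log2 scale, and the exception was USP18. That scale compresses changes near the array median, so this bound does not limit the change in signal above it. No gene of the 28 had shRNA and Empty Vector arrays without overlap, a pattern that 3.59% of all genes showed. By role, the median change was 0.0064 over 9 sensors and enzymes, 0.00086 over 3 transcription factors, 0.0078 over 4 genes of the ubiquitin-like system, 0.018 over 7 effectors and -0.0047 over 5 further interferon-induced genes.

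Each shRNA was then set against the same 2 Empty Vector arrays, so these comparisons share their control. With GFP shRNA, 0 of the 28 genes passed (limma; 0.00687% of all genes did). At an unadjusted p under 0.05 there were 3 (10.7%), against 4.47% of all genes, while 13 of the 28 were higher, against 64.4% of all genes. The 3 were USP18 at 0.20 ± 0.087, ISG20 at -0.17 ± 0.076 and XAF1 at -0.059 ± 0.022 (SE), each with a limma adjusted p of 0.947. Over all probe sets of each gene, without the filter, the differences were 0.24 for USP18, -0.0016 for ISG20 and -0.0020 for XAF1 (limma adjusted p = 0.962, 0.994 and 0.995). OAS3 was higher and XAF1 lower on all GFP shRNA arrays than on both Empty Vector arrays, and 18.7% of all genes were separated in this way. With Tat-SF1 shRNA A, 0 of the 28 passed (0.00687% of all genes) and none had an unadjusted p under 0.05 (7.57% of all genes), with 15 of the 28 higher, against 44.2% of all genes. IFI6 and MX2 were higher and IFIH1 lower without overlap, against 23.7% of all genes. With Tat-SF1 shRNA B, 0 of the 28 passed (0.0344% of all genes) and again none had an unadjusted p under 0.05 (9.37% of all genes), with 17 of the 28 higher, against 43.9% of all genes. MX1, MX2, OAS2, OAS3 and USP18 were higher and IFIH1 lower without overlap, or 6 of 28, against 23.6% of all genes. The limma adjusted p of these 6 lay between 0.558 and 0.757. All shRNA B arrays carry the name suffix and no Empty Vector array does, so construct and suffix cannot be told apart here.

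Knockdown of Tat-SF1 was compared with control over 6 and 5 arrays. Of all genes, 5 passed as higher and 27 as lower (0.22% together), and none of the 28 interferon and double-stranded RNA genes was among them. They divided into 14 with a higher and 14 with a lower mean, with a median of -0.00015, against a median of -0.016 and 32.8% higher for all genes. These shares are not matched for level, since more of the 28 lay near the array median (64.3% within 0.1, against 25.5%). Shares of higher genes in the other comparisons are not matched either. Without the filter the median for all genes was -0.0079. With a higher floor it was -0.057, and -0.024 over the 5 genes left of the set. The 3000 brightest genes averaged 9.18 to 9.30 on knockdown arrays and 9.27 to 9.38 on control arrays. The differences of the 28 ran from -0.044 (USP18) to 0.058 (ADAR). After ADAR, the next were ISG20 at 0.054 ± 0.060, IRF9 at 0.046 ± 0.032 and IFI6 at 0.044 ± 0.040 (SE), with limma adjusted p of 0.723, 0.530 and 0.651. Over all probe sets these were 0.017 for ISG20, 0.0018 for IRF9 and 0.042 for IFI6, and ADAR had 0.057. All 28 intervals stayed within 0.25 of 0. This bound holds on the compressed log2 scale, where HTATSF1, at 45.1% of control in units, differed by only -0.30. It does not limit the change in signal above the array median. In those units the highest of the 28 was MX2, with 4.91 ± 3.01 in knockdown and 1.63 ± 4.44 in control arrays (SD). Its ratio of 301% rests on a control value smaller than its SD, with a mean of -0.45 for Empty Vector. The lowest was TLR3 at 49.7% (1.79 ± 1.28 against 3.59 ± 1.77 units), also a small signal. OAS1 at 239% (11.9 ± 4.45 against 4.96 ± 4.37 units) was small too. OAS1 alone had an unadjusted p under 0.05 (3.57% of the 28, against 15.2% of all genes). It averaged 7.97 ± 0.025 in knockdown arrays and 7.93 ± 0.026 in control arrays (SD, n = 6 and 5), a difference of 0.041 ± 0.014 (SE, limma adjusted p = 0.185), and all 6 knockdown arrays were above the control mean. This value rests on 9 of the 19 OAS1 probe sets, and over all 19 the means were 7.90 in knockdown arrays and 7.89 in control arrays, a difference of 0.0056 ± 0.0096 (SE, limma adjusted p = 0.878) with 4 of 6 knockdown arrays above the control mean. No gene of the 28 was without overlap, as 2.23% of all genes were. By role the median change was 0.00075 for sensors and enzymes, 0.014 for transcription factors, -0.023 for the ubiquitin-like system, 0.020 for effectors and -0.0010 for further interferon-induced genes.

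**Figure D4:**
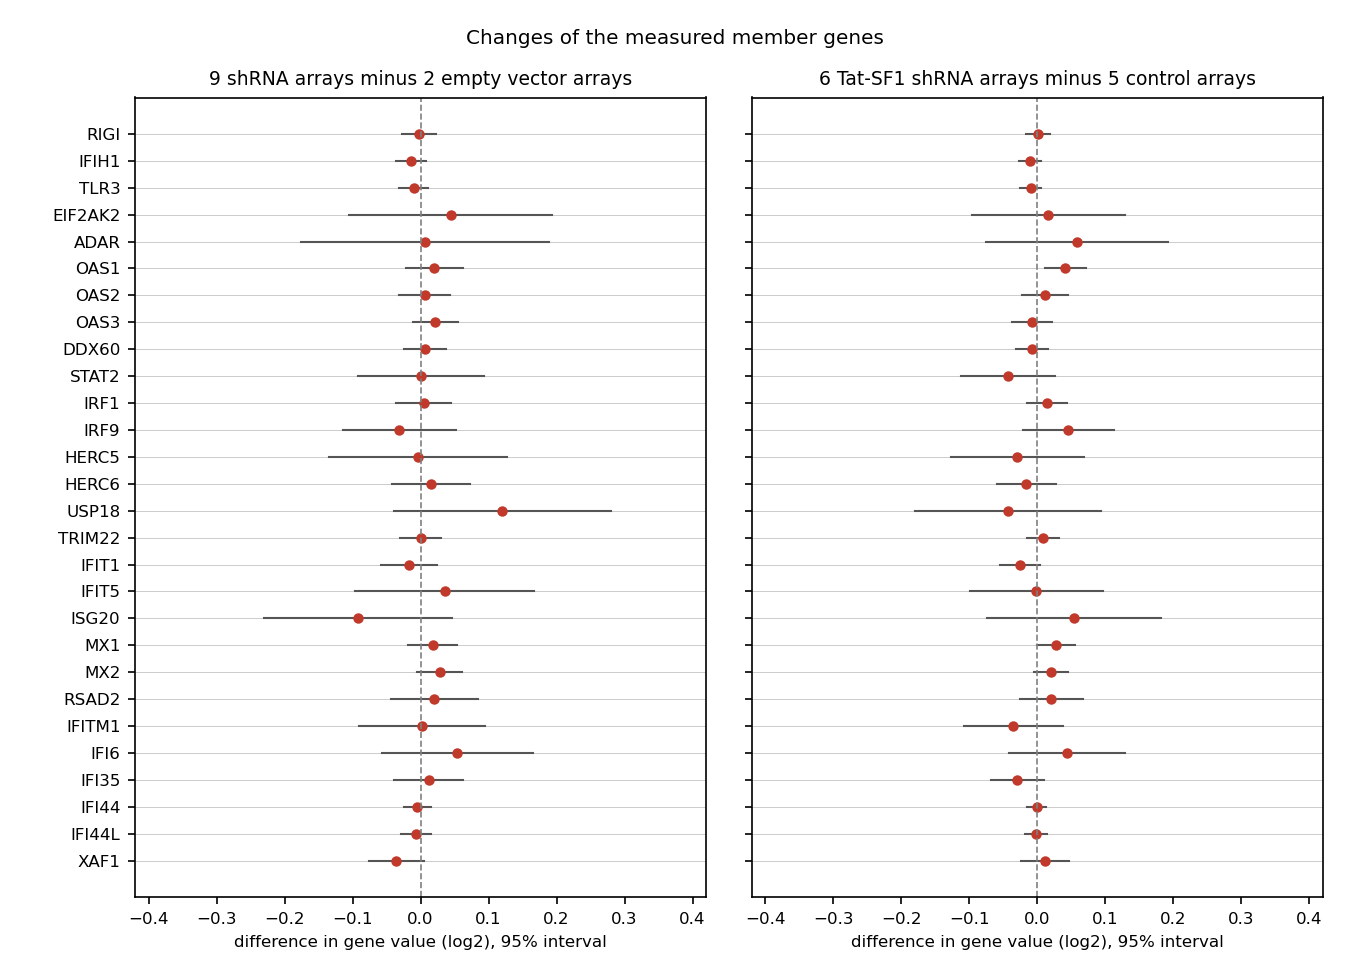
Difference in gene value (log2) of the 28 measured genes with its 95% interval from limma, for the 9 shRNA arrays minus the 2 Empty Vector arrays (left) and the 6 Tat-SF1 shRNA arrays minus the 5 control arrays (right). The dashed line marks 0. All intervals but that of OAS1 in the right panel, whose adjusted p is 0.185, reach 0 or cross it.

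The Tat-SF1 shRNAs were also set against GFP shRNA alone, so that both sides expressed a hairpin. None of the 28 genes passed, nor did any of the 14552 (0%), of which 1975 had an unadjusted p under 0.05 (13.6%, limma). Of the 28, 15 were higher, against 28.2% of all genes, and 3 (10.7%) had such a p. OAS1 was 0.044 ± 0.017 higher (limma adjusted p = 0.301), IRF9 0.079 ± 0.035 higher (limma adjusted p = 0.346) and IFI35 differed by -0.047 ± 0.021 (limma adjusted p = 0.359). OAS1 was the only gene of the 28 without overlap, against 6.78% of all genes, and its 3 GFP shRNA values all rounded to 7.93. Over all probe sets the differences were 0.0027 for OAS1, -0.0018 for IRF9 and -0.032 for IFI35 (limma adjusted p = 0.960, 0.976 and 0.684). Between the 2 Tat-SF1 shRNAs, B minus A, none of the 28 and none of all genes passed (0%), while 651 genes (4.47%, limma) and 1 of the 28, OAS2, had an unadjusted p under 0.05. Of the 28, 14 were higher, against 48.8% of all genes. OAS2 averaged 8.00 ± 0.027 with shRNA B and 7.95 ± 0.033 with shRNA A (SD, n = 3 each), a difference of 0.051 ± 0.018 (SE, limma adjusted p = 0.998), and over all 28 OAS2 probe sets the difference was -0.0023. ISG20 was lower and OAS3 higher with shRNA B without overlap, against 10.5% of all genes. The ISG20 means were 8.15 ± 0.00065 with shRNA B and 8.28 ± 0.049 with shRNA A (SD). The name suffix is on all shRNA B arrays but only on replicate 3 of shRNA A, so construct and suffix largely coincide here.

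The 9 dim genes were tested in a setting without the filter on dim probe sets, which measured all 37 among 18191 genes. None of the 37 passed in any of the 7 comparisons, beside 0% of all genes for shRNA minus Empty Vector and 0.104% for knockdown minus control. Of the 18191 genes, 3 passed for Tat-SF1 shRNA minus GFP shRNA and 0 in each of the other comparisons. At an unadjusted p under 0.05 (limma) the 37 held 2 for shRNA minus Empty Vector, OASL and USP18, against 6.18% of all genes. For knockdown minus control they held 1, IFIT3, against 11.7%. The smallest limma adjusted p of a dim gene was 0.785 for shRNA minus Empty Vector and 0.327 for knockdown minus control. OASL averaged 7.75 ± 0.047 in shRNA arrays and 7.83 ± 0.039 in Empty Vector arrays (SD, n = 9 and 2), a difference of -0.083 ± 0.033 (SE, limma adjusted p = 0.785). IFNB1 averaged 7.85 ± 0.012 in shRNA arrays and 7.85 ± 0.0024 in Empty Vector arrays, and CXCL10 averaged 7.90 ± 0.0062 in shRNA arrays and 7.91 ± 0.013 in Empty Vector arrays. In this setting all of the 12 USP18 probe sets with an estimate entered, and USP18 had a difference of 0.15 ± 0.061 (SE, 95% interval 0.0086 to 0.28, limma adjusted p = 0.798), with all 9 shRNA arrays above both Empty Vector arrays. The share of all genes without overlap was not counted in this setting, and was 3.59% with the filter.

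Probe sets were tested one by one, since an induced first exon or a short isoform could move without the gene median. The 28 genes had 397 probe sets among 221416. None passed for shRNA minus Empty Vector (0.00271% of all probe sets did), and 19 (4.79%) had an unadjusted p under 0.05, against 7.04% of all. None passed for knockdown minus control (0.0357% of all), and 36 (9.07%) had such a p, against 12.8%. The lowest p belonged to probe sets of STAT2, USP18 and XAF1 in the first comparison and of USP18, EIF2AK2 and IRF1 in the second. USP18 probe set 3936554 read 8.62, 8.47 and 8.53 with Tat-SF1 shRNA A, 8.50, 8.57 and 8.75 with Tat-SF1 shRNA B, 8.88, 8.71 and 8.82 with GFP shRNA, and 9.04 and 8.95 with Empty Vector. It lay below Empty Vector on all 9 shRNA arrays, with a difference of -0.34 ± 0.088 (limma adjusted p = 0.552), while the gene value of USP18 lay above it. Knockdown minus control was -0.30 ± 0.072 there (limma adjusted p = 0.110). EIF2AK2 probe set 2548417 read 8.72, 8.67 and 8.73 with shRNA A, 8.69, 8.79 and 8.75 with shRNA B, 8.40, 8.52 and 8.43 with GFP shRNA, and 8.66 and 8.35 with Empty Vector. Every knockdown array was above every control array, and the difference was 0.25 ± 0.063 (limma adjusted p = 0.121). This probe set and USP18 probe set 3936554 were picked for their small p. The share of all probe sets without overlap was not counted. STAT2 probe set 3457779 differed by -0.16 ± 0.038 and XAF1 probe set 3708085 by -0.13 ± 0.034 between shRNA and Empty Vector arrays (limma adjusted p = 0.534 and 0.552). IRF1 probe set 2875369 differed by 0.099 ± 0.026 between knockdown and control arrays (limma adjusted p = 0.139).

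The splicing index, a probe set's value after subtraction of its gene's value from the same array, was used to look for unequal change within a gene. None of the 397 probe sets passed for shRNA minus Empty Vector (0% of all), where 14 (3.53%) had an unadjusted p under 0.05 against 7.52% of all. None passed for knockdown minus control (0.00316% of all), where 28 (7.05%) had such a p against 11.8%. The 3 smallest p in the knockdown comparison all belonged to EIF2AK2, at -0.20 ± 0.036 for probe set 2548434, 0.24 ± 0.056 for 2548417 and -0.21 ± 0.052 for 2548410 (limma adjusted p = 0.101, 0.150 and 0.164). Against Empty Vector they belonged to USP18 probe set 3936554 at -0.46 ± 0.084, EIF2AK2 probe set 2548430 at -0.19 ± 0.036 and ADAR probe set 2436760 at 0.22 ± 0.069 (limma adjusted p = 0.399, 0.426 and 0.552).

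Genes whose promoters hold the element core were set beside those whose promoters do not. For shRNA minus Empty Vector the median change was 0.0020 over 15 measured genes with a match and 0.0045 over 9 without. For knockdown minus control it was -0.0018 with a match and 0.011 without. These are descriptions, and the groups were not compared by a test.

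Other genes of the pathway did not pass either. Of 7 further lists, none had a gene that passed in either direction in shRNA minus Empty Vector (0.0137% of all genes) or in knockdown minus control (0.22%). Over all genes the median change was 0.00092, with 51.2% higher, in the first comparison and -0.016, with 32.8% higher, in the second. Of 14 listed interferon genes 12 had a probe set with their symbol alone, and 1 of these, IFNA8, was measured. For the rest of the 12, low values and too few probe sets were not told apart. Of 17 receptor and JAK-STAT genes 15 were measured, 9 of them at least 0.5 above the array median. PTPN11, a phosphatase, had the largest change with an shRNA, at 0.16 ± 0.13, and IFNAR1, the first receptor chain for interferon beta, had 0.14 ± 0.071 (SE, limma adjusted p = 0.897 and 0.777). TYK2, a kinase of that receptor, had -0.12 ± 0.054 with knockdown (limma adjusted p = 0.324). The medians of the 15 were 0.052 and 0.0012, with 10 and 8 of them higher. Of 24 adaptors and kinases of sensing 22 were measured, with medians of 0.0044 and -0.029 and with 12 and 5 higher. An unadjusted p under 0.05 (limma) was reached by 1 of the 22 with an shRNA (6.81% of all genes) and by 5 with knockdown (15.2%). Here TRIM25, the ubiquitin ligase that activates RIG-I, had 0.14 ± 0.062 with an shRNA, and NLRX1, a mitochondrial regulator of antiviral signalling, had -0.15 ± 0.045 with knockdown (limma adjusted p = 0.727 and 0.126).

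Of 21 genes for other double-stranded RNA-binding and effector proteins 19 were measured, with medians of 0.046 for shRNA minus Empty Vector and -0.0043 for knockdown minus control. Of the 19, 14 were higher with an shRNA, against 51.2% of all genes, and 9 with knockdown, against 32.8%. DICER1, which cuts hairpins into small RNAs, had 0.17 ± 0.067 with an shRNA (limma adjusted p = 0.695), and ILF2, a double-stranded RNA-binding nuclear factor, had 0.17 ± 0.098 with an shRNA (adjusted p = 0.826) and 0.099 ± 0.079 with knockdown (adjusted p = 0.590). Of 40 further interferon-stimulated genes 37 were measured, with medians of 0.0047 and -0.0034. LGALS3BP, a secreted glycoprotein and the brightest of them, averaged 10.35 ± 0.16 in knockdown arrays and 10.63 ± 0.20 in control arrays (SD, n = 6 and 5), a difference of -0.28 ± 0.097 (SE, limma adjusted p = 0.183). IFITM2, the relative of IFITM3, had 0.22 ± 0.12 with knockdown (adjusted p = 0.431). Of 16 antigen presentation genes 11 were measured, with medians of 0.0036 and -0.025, and TAPBP, the peptide-loading factor tapasin, had -0.20 ± 0.086 with an shRNA and -0.19 ± 0.065 with knockdown (adjusted p = 0.716 and 0.188). Of 20 NF-kB and inflammatory genes 13 were measured, with medians of 0.0090 and -0.00021, and NFKBIA, the inhibitor induced by NF-kB, had -0.12 ± 0.053 with an shRNA (adjusted p = 0.727).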

How the data were processed

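The authors deposited 1 table of log2 values for 1399022 probe sets on 11 Affymetrix Human Exon 1.0 ST arrays. How these were computed, normalized and mapped to a genome is not given in the sources used here, and the log2 scale and the shared array median were read from the values. Each array lacked an estimate for 13190 to 15431 probe sets, which were set to missing.

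Of the probe sets, 355799 had 1 gene symbol in the array's gene table, 15195 had several and were left out, and the table did not list 1028028. Older symbols were replaced through RefSeq synonyms (2876 of 19536, with 210 kept). A gene value was the median of the probe sets estimated on all arrays whose mean lay at or above the table median (7.91), with at least 4 of them, which gave 14552 genes. Units above the median are linear values minus the linear background of 239.5. Differences were tested with limma 3.58.1 (lmFit, eBayes with a trend) in R 4.3.3, with 4 constructs as levels, or 2 levels for knockdown minus control, and Benjamini-Hochberg adjustment over all genes or probe sets. Passing means an adjusted p under 0.05. Every p or adjusted p comes from limma unless a permutation test is named. The scripts were tested on simulated data. The number of arrays limits the precision.

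The genes and all lists were chosen with earlier results of these data known. Values on every array are given for 16 fixed genes and for the 5 largest changes in shRNA minus Empty Vector and in knockdown minus control. For the other lists up to 2 genes with the largest changes were eligible, and for probe sets the 3 with the smallest p. Replicate numbers were not used to pair the arrays in the main tests. Over 15 pairs of arrays with the same number, the correlation of deviations from the group means lay between -0.147 and 0.268, and 5 were over 0.1. Pairs with different numbers lay between -0.268 and 0.217. The deviations of the 2 Empty Vector arrays mirror each other, so these values do not settle whether the numbers pair the arrays. Array names carry an added suffix on Tat-SF1 shRNA A replicate 3 and on all Tat-SF1 shRNA B arrays and on no control array. The alternatives tried changed the filter, the summary of probe sets, the normalization, the background, the variance model, the suffix or replicate number as a block, and the arrays left out.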

Additional observations from a re-analysis of the deposited data

Results flagged for a closer look

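Dixon's test at the 95% level was run on the 28 measured genes and HTATSF1 in the 6 knockdown and the 5 control arrays, which made 58 tests. Chance flags about 1 in 20 groups, and 3 were found. OAS3 on Tat-SF1 shRNA B replicate 3 was far above the other knockdown arrays, at 8.01164, with the nearest at 7.96497. TRIM22 on Tat-SF1 shRNA A replicate 2 was far above the other knockdown arrays, at 7.98187, with the nearest at 7.92782. IFI44L on GFP shRNA replicate 1 was far below the other control arrays, at 7.91285, with the nearest at 7.92766. All 3 gaps are under 0.1 on the log2 scale and lie close to the array median.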

How the results depend on the processing

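No gene of the 28 passed in any of 152 values, from 7 comparisons in 21 or 22 alternative settings with 5 to 37 of the genes measured. The smallest limma adjusted p was 0.0587, for knockdown minus control with the mean of the probe sets, against 0.185 as reported. In that setting 5 of the 28 had an unadjusted p under 0.05 (limma), beside 2832 of 14552 genes. Across all settings, 0 to 7 genes of the set had an unadjusted p under 0.05 (limma). The 7 of 28 came from Tat-SF1 shRNA minus GFP shRNA with the mean of the probe sets, beside 2468 of all 14552 genes. For knockdown minus control the suffix block gave 4 of 28 beside 1279 of 14552, against 1 of 28 beside 2211 as reported. Of 638 values of single genes, 602 stayed within the spread and 36 moved further. None had an adjusted p under 0.05 (limma), so there was no call to reverse. Signs did change for some genes. In shRNA minus Empty Vector ADAR ran from -0.06679 to 0.1027 and ISG20 from -0.2481 to 0.03795, while USP18 stayed positive, at 0.04183 to 0.2469. HTATSF1 stayed between -0.7077 and -0.2373. The number of all genes that passed was 2, 1, 1, 5, 0, 32 and 0 for shRNA, GFP shRNA, shRNA A and shRNA B minus Empty Vector, Tat-SF1 shRNA minus GFP shRNA, knockdown minus control, and shRNA B minus shRNA A, and it moved as follows in that order. Without a filter on dim probe sets it was 0, 0, 0, 0, 3 and 19, with 40 probe sets for knockdown and a splicing index count of 3 for shRNA and 11 for knockdown (79, 0 and 7 as reported). With a higher floor it was 5, 0, 8, 38, 6 and 257, and the median change of the set was 0.04991 for shRNA minus Empty Vector, 0.02238 for shRNA B minus Empty Vector, -0.05467 for Tat-SF1 shRNA minus GFP shRNA, -0.02363 for knockdown and -0.0246 for shRNA B minus shRNA A, over the 5 genes left. With 1 probe set enough for a gene it was 1 (shRNA), 0 (GFP shRNA), 0 (shRNA A), 1 (knockdown) and 1 (shRNA B minus shRNA A). With the mean of the probe sets it was 3 (shRNA A), 21 (shRNA B), 1 (Tat-SF1 shRNA minus GFP shRNA) and 140 (knockdown). Quantile normalization gave 11 for shRNA B, and a subtracted background gave 1 (shRNA) and 4 (shRNA A), with a median of the set of 0.01833 for shRNA. Without the variance trend it was 0 (shRNA, GFP shRNA and shRNA A), 3 (Tat-SF1 shRNA minus GFP shRNA) and 87 (knockdown). With the suffix of the array names as a block it was 0 (shRNA, GFP shRNA, shRNA A, shRNA B and knockdown) and 1 (Tat-SF1 shRNA minus GFP shRNA), with 1 probe set for shRNA and 0 for knockdown by value or splicing index. On arrays without the suffix it was 0 for shRNA, GFP shRNA and shRNA A minus Empty Vector and for knockdown, and shRNA B could not be compared there. With the replicate number as a block it was 1 (shRNA), 0 (GFP shRNA), 2 (shRNA A), 2 (shRNA B) and 10 (knockdown), with 1 and 13 probe sets for shRNA and knockdown and 0 by splicing index for knockdown. Only 4 arrays correlated best with their own number. Without the brightest and the dimmest array, an alternative chosen after seeing the data, it was 1 (shRNA), 0 (GFP shRNA, shRNA A, shRNA B and knockdown), and the median of the set was 0.0162 for shRNA B. Leaving out each array in turn gave 0 to 3 (shRNA, with medians of -0.007562 to 0.01379), 0 to 2 (GFP shRNA), 0 to 1 (shRNA A), 0 to 9 (shRNA B), 0 to 1 (Tat-SF1 shRNA minus GFP shRNA), 2 to 69 (knockdown) and 0 to 1 (shRNA B minus shRNA A), with 1 to 9 and 0 to 25 probe sets and 0 to 7 and 0 to 95 by splicing index. Where no gene passed, 318 to 2335 genes had an unadjusted p under 0.05 (limma). The causes were not tested. Genes near the array median have compressed changes, and a rise of a dim gene that stays under that level would not be seen. Empty Vector has 2 arrays, which limits all comparisons with it.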
